A study of Rattus norvegicus with 10 samples.

Results

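The apoptosis genes described here are the 9 genes Bcl2, Bcl2l1, Mcl1, Bak1, Bid, Bcl2l11, Pmaip1, Casp8 and Fas. Of these, 8 are among the 13837 genes that could be named on the array. Their probes were found by matching the accession that the scanner files give for each probe to the RefSeq genes of these symbols. In all, 13 probes matched 8 of the 9 genes, and no accession matched Pmaip1, which encodes the BH3-only protein Noxa. RNA came from the livers of male Sprague Dawley rats and was labelled with Cy3 and measured on Agilent rat whole-genome arrays with 1 sample on each. The 3 control rats received the solvent, propylene glycol. Another 4 rats received sulfur mustard (SM), a bifunctional alkylating agent, as 1 subcutaneous dose of 3.5 mg/kg, which is 0.7 of the LD50. The remaining 3 rats (SM + MSTF) received the same dose of SM and, 1 h later by the intragastric route, 120 mg/kg of MSTF, a plant mixture that combines the salvianolic acids of Salvia miltiorrhiza with flavonoids of Anemarrhena asphodeloides. Sampling was at 24 h after SM in each group. The question was which of these genes differed between control, SM and SM + MSTF livers.

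Cells die by apoptosis along routes that meet at the caspases, a family of proteases. In the mitochondrial route, Bcl2, Bcl2l1 (Bcl-xL) and Mcl1 hold back the pore-forming proteins Bak1 and Bax, and BH3-only proteins such as Bid, Bcl2l11 (Bim), Bmf and Bad oppose these guardians. In the death receptor route, Fas recruits and activates the initiator caspase Casp8, which in hepatocytes cleaves Bid and so passes the signal on to the mitochondria. Hepatocytes depend on Bcl2l1 and Mcl1 for survival and are known for their sensitivity to Fas. Much of this control acts on proteins, by binding, cleavage and release from mitochondria, and is outside the reach of an RNA array.

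No member was called changed in any comparison. Values are log2 of the background-subtracted intensity after quantile normalization, and levels are not compared between probes. A probe was tested where some group had it well above background on all its arrays, and called changed where limma's Benjamini-Hochberg adjusted p was under 0.05 with a change of at least 1.5-fold. Of the 13 probes, 10 were tested, for 6 genes (Bcl2l1, Mcl1, Bak1, Bid, Casp8 and Fas). In SM against control 0 of these 10 were called, against 2.41% (553) of all 22991 tested probes. In SM + MSTF against SM 0 of 10 were called, against 1.26% (290) of all tested probes. In SM + MSTF against control limma likewise found 0 of 10 member probes, and the background was also 0% of all tested probes, although 2193 of them (9.54%) had an unadjusted p under 0.05. At an unadjusted p under 0.05 there was again no member probe in any of the 3 comparisons, against 16.4% of all tested probes in SM against control and 15.9% in SM + MSTF against SM. Over the 3 groups the moderated F-test found 0 of the 10 member probes at an adjusted p under 0.05, against 2.07% of all tested probes. With 10 member probes, a background of 2.41% leaves little room for a count below it, so the intervals of the differences carry more than the count of 0.

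The counts over all probes moved with single arrays, while the count of member probes stayed at 0. In SM against control the 553 probes called became 65 to 327 when any 1 control or SM array was left out, with the fewest without control replicate 2 and the most without SM replicate 2, and 85 once a random slide block was fitted. In SM + MSTF against SM the 290 became 98 without SM replicate 1, 122 without SM replicate 3, 115 without SM + MSTF replicate 1 and 102 under that block. In SM + MSTF against control the 0 became 247 without SM + MSTF replicate 3, and 291 with the slide as a fixed block.

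The 95% confidence intervals set limits on the changes that these arrays allow. In SM against control the interval of 6 of the 10 probes lay wholly within 1.5-fold in either direction, and it did so for 5 probes in SM + MSTF against control and 6 in SM + MSTF against SM. The 10 log2 fold changes ran from -0.21 to 0.63 in SM against control, from -0.13 to 0.31 in SM + MSTF against control and from -0.48 to 0.43 in SM + MSTF against SM. Their median size, without sign, was 0.16, 0.14 and 0.20 on the log2 scale, beside 0.16, 0.14 and 0.17 for all tested probes. The smallest adjusted p of a member was 0.45, 0.62 and 0.43 in these comparisons, by limma.

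**Figure D1:**
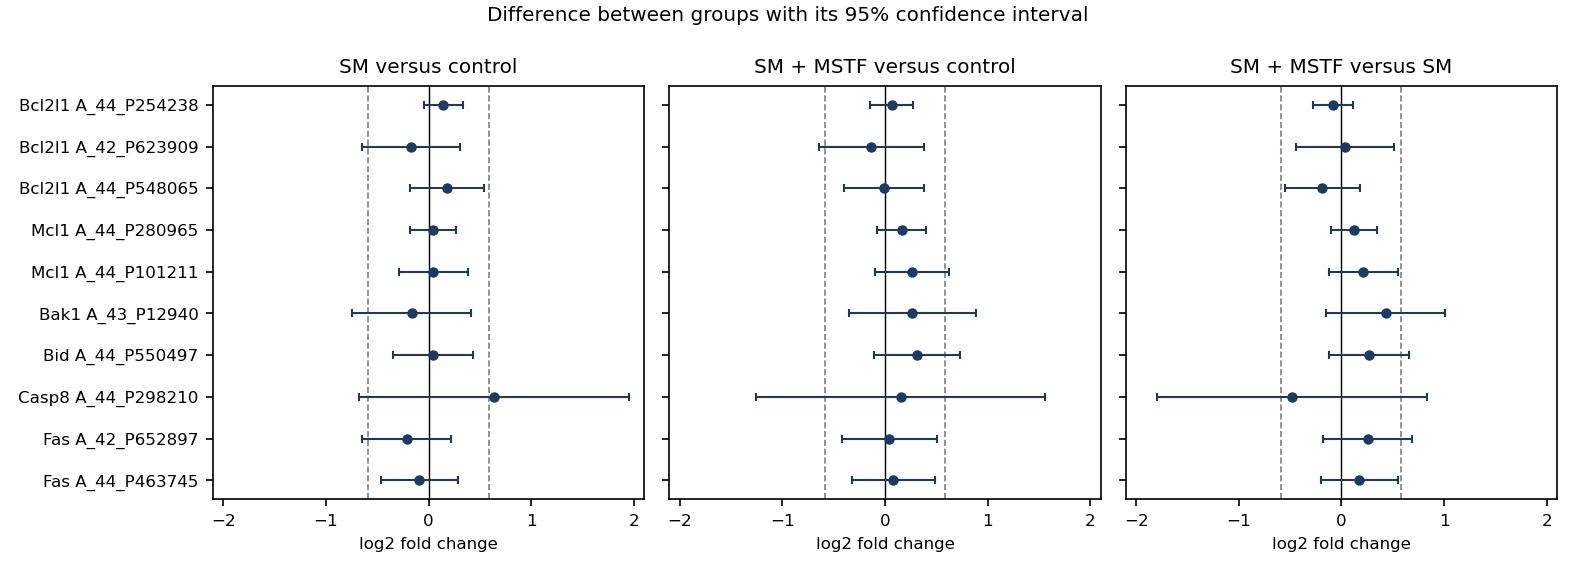
Log2 fold changes (points) of the 10 tested probes with 95% confidence intervals from the limma fit (bars), in SM against control, SM + MSTF against control and SM + MSTF against SM. The dashed lines mark 1.5-fold in either direction. Every interval includes 0, and that of Casp8 is the widest in each comparison, as in SM + MSTF against control, where it runs from -1.25 to 1.56.

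The arrays lay on 3 slides, which bears on every comparison. All 3 controls shared slide 1 with SM + MSTF replicate 3, the SM arrays filled slide 2, and the other SM + MSTF arrays were on slide 3, so SM and slide 2 cannot be told apart. Per array, 51.9% to 61.4% of the probes were well above background, and no spot was saturated. The labelled tissue fitted its markers, since all 10 hepatocyte markers (Alb, Ttr, Apoa1 and others) were well above background on every array of some group. Between groups 0 of the 10 were called. The share of all tested probes called was 2.41% in SM against control and 1.26% in SM + MSTF against SM. In SM + MSTF against control, where 0 of all tested probes were called, 3 of the 10 had an unadjusted limma p under 0.05, against 9.54% of all tested probes. There the arrays of 4 of the 10 did not overlap, against 15.4%. The control genes Actb and Gapdh, with 2 probes each, had log2 fold changes between -0.19 and 0.24 in the 3 comparisons, and none was called.

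Of the 10 tested probes, 1 probe of Bcl2l1 and 1 of Mcl1, the guardians on which hepatocytes depend, had the smallest standard errors. The Bcl2l1 probe A_44_P254238 had log2 signals of 10.20, 10.13 and 9.95 on the control arrays, 10.28, 10.24, 10.24 and 10.21 on the SM arrays and 10.16, 10.13 and 10.19 on the SM + MSTF arrays. All 4 SM arrays lay above the controls, and all 3 SM + MSTF arrays lay below the SM arrays, by margins of about a hundredth or less. The fitted difference in SM against control was 0.15 (95% confidence interval -0.05 to 0.34, limma adjusted p = 0.45), that is at most 1.27-fold. In SM + MSTF against SM it was -0.08 (interval -0.27 to 0.11, adjusted p = 0.66).

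Groups that do not overlap are frequent on these arrays. Between SM and control there was no overlap for 18.0% of all tested probes, between SM + MSTF and control for 15.4% and between SM + MSTF and SM for 14.7%. Of the 10 member probes, 1 did not overlap in each comparison, and none of these differences reached 1.5-fold.

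The other Bcl2l1 probes gave no single direction. Probe A_44_P548065 averaged 6.26 ± 0.29 over the controls (SD, n = 3), 6.44 ± 0.23 over the SM arrays (SD, n = 4) and 6.25 ± 0.12 over the SM + MSTF arrays (SD, n = 3), with SM replicate 1 at 6.78 and the other SM arrays at 6.32 to 6.33. Probe A_42_P623909 had 6.51 ± 0.49, 6.34 ± 0.21 and 6.38 ± 0.15 in the same groups, where control replicate 1 stood at 7.08 and the other controls at 6.20 and 6.26. Its log2 fold change in SM against control was -0.17, and 0.11 without control replicate 1. On every array the probe A_43_P12577 failed to rise well above background, at 2.13 to 2.29, and it was not tested.

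Mcl1, a short-lived guardian of the mitochondria, was measured by 2 tested probes. Probe A_44_P280965 had log2 signals of 10.95, 10.87 and 10.94 on the control arrays, 11.07, 10.78, 10.92 and 11.07 on the SM arrays and 11.01, 11.03 and 11.20 on the SM + MSTF arrays. The SM + MSTF arrays lay above all 3 controls, with a fitted difference of 0.16 (interval -0.08 to 0.40, limma adjusted p = 0.66). In SM against control the difference was 0.04 (interval -0.18 to 0.27), so a change of over 1.20-fold upward or to under 0.88 of control lies outside the interval. Probe A_44_P101211 gave 0.05 (interval -0.29 to 0.39) in SM against control and 0.26 (interval -0.10 to 0.63) in SM + MSTF against control. On the slide that held both groups, where SM + MSTF replicate 3 alone is set against the controls, these last differences were 0.28 and 0.51 for the 2 probes, with adjusted p of 0.49 and 0.33 by limma.

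Bcl2, the founding member of the family, stayed near background on all 10 arrays and was not tested. Its probe lay at 2.63, 2.78 and 3.16 on the control arrays, 2.66, 2.75, 2.52 and 3.33 on the SM arrays and 2.43, 3.32 and 2.79 on the SM + MSTF arrays. The lowest log2 signal of any probe well above background was 3.77 to 4.82 per array, so these values order nothing. Bcl2l11, the BH3-only protein Bim, was well above background on 2 of the 4 SM arrays and on no array of the other groups. It lay at 3.38 to 4.03 in control, 3.83 to 4.38 in SM and 3.78 to 4.23 in SM + MSTF. The groups overlapped, the probe was not tested, and its mean in SM, 4.11, was below the lowest measurable mean of the control arrays, 4.39, so no fold is given.

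Bid, the BH3-only protein that Casp8 cleaves, had log2 signals of 5.68, 5.97 and 6.40 on the control arrays, 6.11, 6.13, 5.80 and 6.20 on the SM arrays and 6.36, 6.16 and 6.47 on the SM + MSTF arrays. All groups overlapped. The difference was 0.05 (interval -0.34 to 0.44) in SM against control, 0.31 (interval -0.10 to 0.73) in SM + MSTF against control and 0.27 (interval -0.12 to 0.66) in SM + MSTF against SM, with adjusted p of 0.92, 0.62 and 0.46 by limma. Of the tested members Bid had the lowest p in the F-test over the groups, with an adjusted p of 0.52. The named genes whose log2 signal was most like that of Bid over the 10 arrays were Nipa2 (Pearson r = 0.95), Eif3e (r = 0.95) and Pnrc2 (r = 0.94), a description over 10 arrays chosen from all tested probes.

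**Figure D2:**
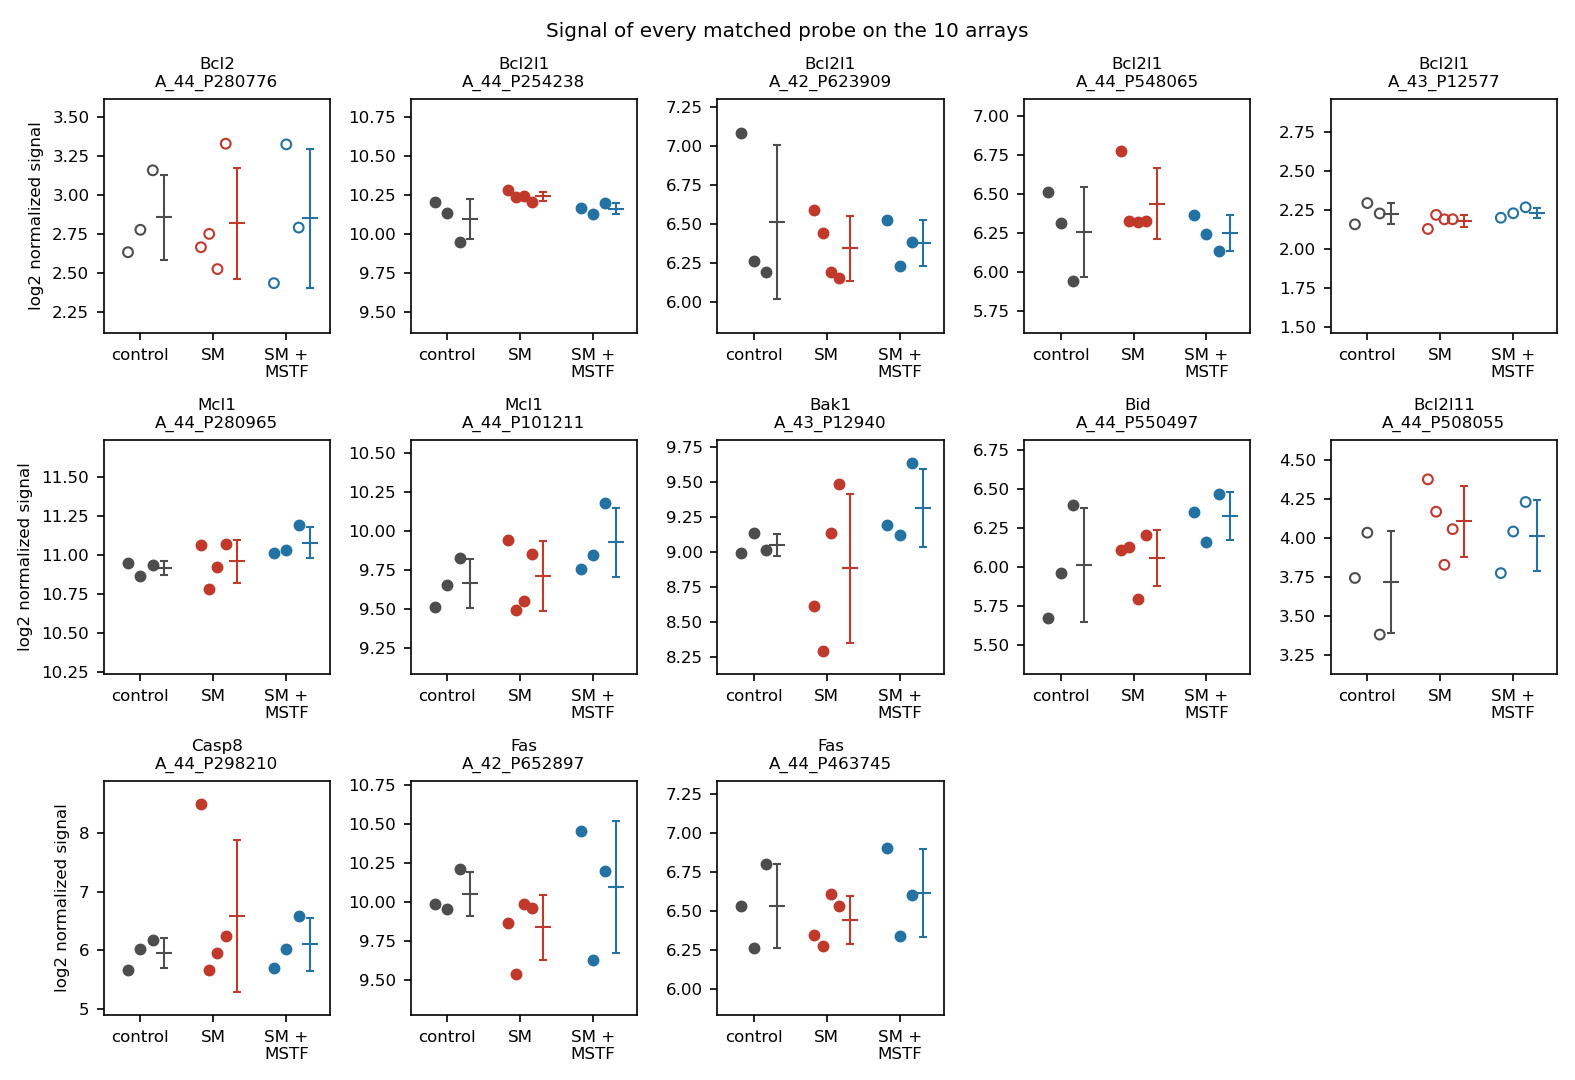
Log2 normalized signal (vertical axis) of the 13 matched probes on the 3 control, 4 SM and 3 SM + MSTF arrays, with replicates in order from left to right in each group and bars for the mean and SD. Open circles mark groups in which the probe was not well above background on every array. The groups share most of their range in the tested panels, SM replicate 1 stands alone for Casp8 at 8.50, and the SM arrays of Bak1 run from 8.29 to 9.49.

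Casp8, the initiator caspase downstream of Fas, had the largest fitted difference of any member, and it rested on 1 array. Its log2 signal was 5.66, 6.02 and 6.18 on the control arrays, 8.50, 5.66, 5.96 and 6.24 on the SM arrays and 5.70, 6.02 and 6.59 on the SM + MSTF arrays. SM replicate 1 stood at 8.50, and all other arrays lay between 5.66 and 6.59. On the scanner that spot had a median signal of 375 over a background of 45.5, where the other 9 arrays had signals of 99 to 149, and it was not marked as non-uniform. The probe has 1 spot per array, so there is no second spot to set beside it. The fitted difference in SM against control was 0.63 (interval -0.68 to 1.95, limma adjusted p = 0.65). Without SM replicate 1 it was -0.002 (adjusted p = 0.998), and in SM + MSTF against SM it went from -0.48 to 0.15.

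Fas, the death receptor, had 2 tested probes, with differences of the same sign in SM against control and in SM + MSTF against SM. Probe A_42_P652897 had log2 signals of 9.99, 9.96 and 10.21 on the control arrays, 9.87, 9.54, 9.99 and 9.97 on the SM arrays and 10.45, 9.63 and 10.20 on the SM + MSTF arrays. SM replicate 2 was the lowest array and SM + MSTF replicate 1 the highest, and the groups overlapped. The difference was -0.21 (interval -0.64 to 0.22, limma adjusted p = 0.64) in SM against control and 0.26 (interval -0.18 to 0.69, adjusted p = 0.52) in SM + MSTF against SM. Probe A_44_P463745 gave -0.09 (interval -0.47 to 0.28) and 0.17 (interval -0.20 to 0.55) in these comparisons, within 1.5-fold in both. Its SM + MSTF arrays were also highest on replicate 1, at 6.91, and lowest on replicate 2, at 6.34.

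Bak1, which forms pores in the outer mitochondrial membrane, varied more among the SM rats than between groups. Its log2 signal was 8.995, 9.14 and 9.02 on the control arrays, 8.61, 8.29, 9.14 and 9.49 on the SM arrays and 9.19, 9.12 and 9.64 on the SM + MSTF arrays. The SD was 0.08 in control, 0.53 in SM and 0.28 in SM + MSTF, and the SM group held arrays below and above all controls. The difference was -0.17 (interval -0.75 to 0.41, limma adjusted p = 0.80) in SM against control and 0.43 (interval -0.15 to 1.01, adjusted p = 0.43) in SM + MSTF against SM, which allows up to a 2.02-fold rise. Without SM replicate 2 and SM + MSTF replicate 3, an alternative chosen after the data were seen, these differences were 0.03 and 0.08. Those arrays held the lowest SM and the highest SM + MSTF value of Bak1, so the second difference had to shrink. With each array left out in turn, the difference in SM + MSTF against SM ran from 0.24 (without SM replicate 2) to 0.63 (without SM replicate 4).

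SM replicate 2 and SM + MSTF replicate 3 were the lowest and highest of the 10 arrays for Bak1, and other apoptosis genes, antiapoptotic ones included, took the same order. Of 48 tested apoptosis genes from the lists used below, with 1 probe each, 10 (20.8%) had their lowest signal on SM replicate 2 and their highest on SM + MSTF replicate 3, against 3.33% of all tested probes. They included Bak1 and Mcl1 among the members and Bcl2a1, Bnip3, Casp1, Casp6, Ripk3, Tnfrsf1a and Tnfsf10 among the others. Over all tested probes this pair ranked 2 in frequency among the 90 pairs of lowest and highest array, so the order is common on these arrays. The pattern was noticed on Bak1 and then counted, and Bak1 is part of the count. Over the 10 arrays the apoptosis genes most like Bak1 were Daxx (Pearson r = 0.95), Ripk3, the kinase of necroptosis (r = 0.93), Casp1, the inflammatory caspase (r = 0.91), Birc3 (r = 0.86) and Tnfrsf1a, the TNF receptor (r = 0.80). Among all named genes the most alike were Fermt3, an integrin activator of blood cells (r = 0.98), Parp14 (r = 0.98) and Mitd1 (r = 0.97). These correlations were picked from many over arrays that lay on shared slides, and they have no test.

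NK cell markers took the same extremes as Bak1, and the other leukocyte markers did so in part. All 7 tested NK cell markers had log2 fold changes below 0 in SM against control and above 0 in SM + MSTF against SM. Klrd1, described below, is 1 of these 7. No share of all tested probes with these signs is given here for any marker list. Of the 7, 6 were lowest on SM replicate 2 and highest on SM + MSTF replicate 3, against 3.33% of all tested probes. The summed signal of the 7 NK cell markers, on the linear scale, was 1327 to 1619 in control, 777 to 1847 in SM and 1002 to 2235 in SM + MSTF. Klrd1, an NK cell receptor (CD94), was the only gene of the marker lists called. It averaged 5.45 ± 0.09 over the controls (SD, n = 3), 4.23 ± 0.41 over the SM arrays (SD, n = 4) and 5.38 ± 0.36 over the SM + MSTF arrays (SD, n = 3). Its log2 fold change was -1.22 in SM against control and 1.15 in SM + MSTF against SM. It was well above background on 2 of the 4 SM arrays and on all arrays of the other groups. Klrd1 thus entered the test through the groups where it was high, so its call is no support and its differences are given no p. The lowest log2 signal of any probe well above background was 3.77 to 4.17 on the SM arrays. The NK marker Ncr1 was well above background nowhere. All 8 macrophage and Kupffer cell markers were tested. Their log2 fold changes were below 0 in SM against control and above 0 in SM + MSTF against SM. In these comparisons 0 of the 8 were called, against 2.41% and 1.26% of all tested probes. Their summed signal was lowest on SM replicate 2, at 70000, and highest on SM + MSTF replicate 3, at 143800. The controls had 107600 to 138000. Of these 8, only 2 were lowest on SM replicate 2 and highest on SM + MSTF replicate 3, and their mean log2 signal was highest on SM + MSTF replicate 2. Of 10 T cell markers 6 were tested, with a summed signal of 748 to 828 in control, 487 to 934 in SM and 581 to 954 in SM + MSTF, and Cd5 and Cd247 were above background nowhere. Their summed signal took the same extremes, but their mean log2 signal was highest on SM replicate 4. Of the 6 tested T cell markers, 4 had a log2 fold change below 0 in SM against control and 2 above 0, with a median of -0.12. Cd8b, a chain of the T cell co-receptor CD8 picked after its values were seen, had the highest of these. It stood higher on all 4 SM arrays than in the controls, with a log2 fold change of 0.60 (limma adjusted p = 0.081). The 2 tested neutrophil markers had their lowest summed signal on control replicate 1, at 246, and their highest on SM replicate 1, at 1545. In whole liver, fewer cells of a type and less RNA per cell cannot be told apart. The part of leukocyte content in the Bak1 and Mcl1 values was not tested.

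**Figure D3:**
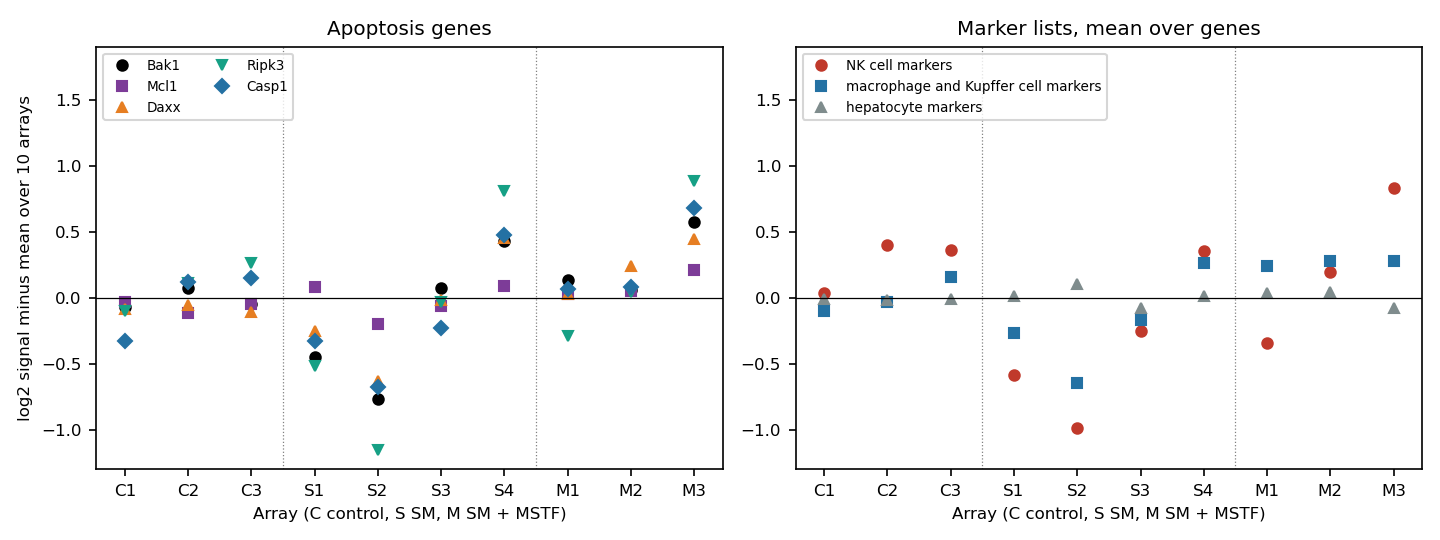
Log2 signal minus its mean over the 10 arrays (vertical axis) for Bak1, Mcl1, Daxx, Ripk3 and Casp1 (left) and for the mean of the tested NK cell, macrophage and Kupffer cell, and hepatocyte markers (right), by array (C control, S SM, M SM + MSTF, with replicate number). Bak1 is lowest on SM replicate 2, at a log2 signal of 8.29, and highest on SM + MSTF replicate 3, at 9.64, and the NK cell markers take the same extremes.

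The promoters of Bak1 and Mcl1 are shown because both genes took these extremes. The stretches are the 250 bases before the RefSeq start site in the assembly GRCr8, printed 5′ to 3′ on the strand of the gene, with each GC box (GGGCGG on either strand) in capitals. Bak1 lies on the minus strand, at chr20:5110975-5111224, and Mcl1 on the plus strand, at chr2:185907918-185908167.
Bak1: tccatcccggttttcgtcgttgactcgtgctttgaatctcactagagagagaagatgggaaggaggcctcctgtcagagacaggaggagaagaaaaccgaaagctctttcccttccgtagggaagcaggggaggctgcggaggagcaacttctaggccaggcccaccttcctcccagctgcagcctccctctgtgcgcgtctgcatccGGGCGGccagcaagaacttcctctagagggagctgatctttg
Mcl1: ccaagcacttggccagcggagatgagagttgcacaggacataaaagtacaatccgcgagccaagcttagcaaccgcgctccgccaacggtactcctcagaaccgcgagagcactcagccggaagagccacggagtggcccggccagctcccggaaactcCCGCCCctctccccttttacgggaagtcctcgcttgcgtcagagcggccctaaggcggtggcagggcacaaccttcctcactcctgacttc
Each holds 1 GC box, at position -42 from the start site in Bak1 and -91 in Mcl1, and 33.1% of the 33469 RefSeq windows of 300 bases (250 before to 50 after the start) hold at least 1 on either strand. The core of the interferon response element, searched on both strands as GAAA, any 2 bases and GAAA again, was in neither window, and 3.92% of all windows hold it. Among the members it was in the window of Fas alone, 38 bases after the start site in reverse orientation. In all, 11 windows of 8 members were searched, with none given for Casp8. A match of letters is a description of the sequence and not a binding site.

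The wider apoptosis pathway was followed through 58 listed genes, members included, of which 55 had a probe and 48 were tested. In SM against control 0 of 48 were called, against 2.41% of all tested probes. An unadjusted limma p under 0.05 was found for 5, 3 higher and 2 lower, against 16.4% of all tested probes. In SM + MSTF against control 0 were called, against 0%, and 2 had such a p, both lower, against 9.54%. In SM + MSTF against SM 0 were called, against 1.26%, and 5 had such a p, 2 higher and 3 lower, against 15.9%. Bcl2l10 is among the 3 higher in SM against control and the 3 lower in SM + MSTF against SM. It entered the test through SM, where it was highest, so its p is no support. The median log2 fold change of the 48 was -0.02, 0.04 and -0.01 in these comparisons, beside 0.03, 0.005 and -0.02 for all tested probes. For 29, 27 and 24 of the 48 genes the interval lay within 1.5-fold.

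**Figure D4:**
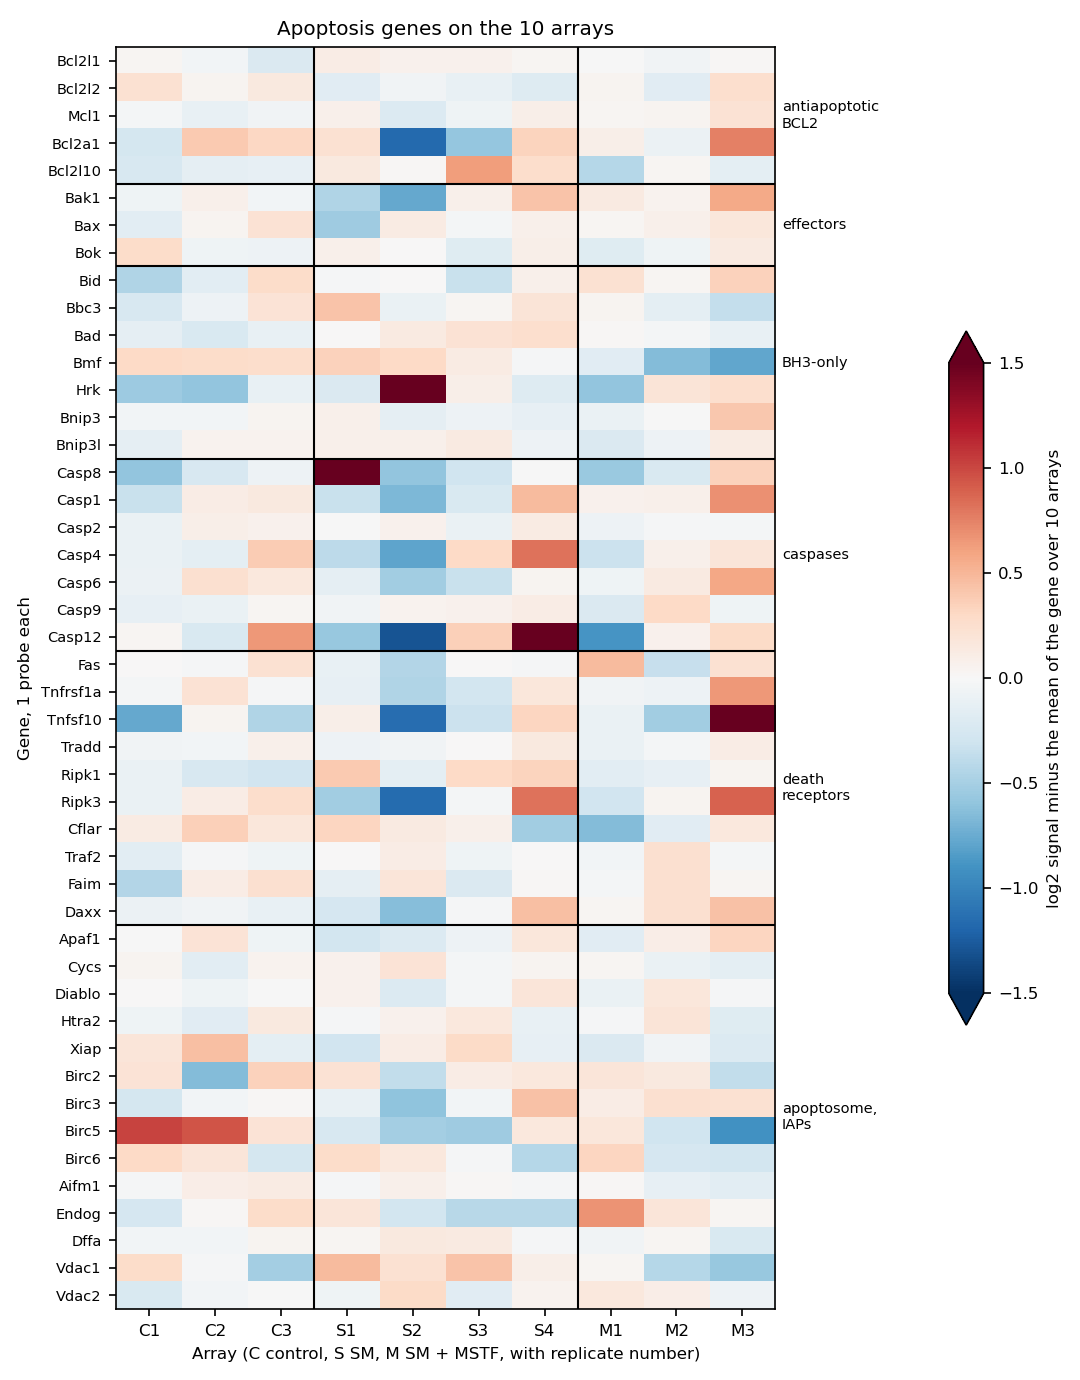
Log2 signal of the tested apoptosis genes reported here (rows, grouped by role) on each array (columns), minus the mean of the gene over the 10 arrays, with red above and blue below that mean and the colour ending at 1.5 on the log2 scale. Blue cells gather on SM replicate 2 and red ones on SM + MSTF replicate 3.

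Among the guardians other than the members, Bcl2l2 (Bcl-w) had a log2 fold change of -0.27 in SM against control (limma adjusted p = 0.27), with all SM arrays below the controls, while its second probe gave 0.18. Bcl2l10 lay at 4.87 to 4.99 in control, 5.13 to 5.74 in SM and 4.69 to 5.15 in SM + MSTF. It was well above background on all 4 SM arrays but on 2 of the 3 arrays in each other group, so it entered the test through the group where it was highest, and its differences are given no p. Of the effectors, Bax had -0.13, 0.06 and 0.18 in SM against control, SM + MSTF against control and SM + MSTF against SM, and Bok had -0.05, -0.08 and -0.03. With Bak1 at -0.17, all 3 effectors were below 0 in SM against control, where the groups overlapped for each. None of these genes was called.

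The BH3-only genes gave the lowest adjusted p of the pathway. Bmf, a sensor tied to the cytoskeleton, had log2 signals of 11.11, 11.08 and 11.07 on the control arrays, 11.15, 11.11, 10.93 and 10.79 on the SM arrays and 10.64, 10.16 and 10.03 on the SM + MSTF arrays. All 3 SM + MSTF arrays lay below every array of the other groups. The difference was -0.81 (interval -1.17 to -0.45) in SM + MSTF against control, with a limma adjusted p of 0.35, and -0.72 (interval -1.06 to -0.38) in SM + MSTF against SM, with an adjusted p of 0.054, so neither was called. In the F-test over the 3 groups its adjusted p was 0.048. Without SM + MSTF replicate 1 the second difference was -0.90 and was called (adjusted p = 0.026). Under 75th percentile scaling Bmf was called in that comparison too. Bad had 0.31 in SM against control (adjusted p = 0.12), with all SM arrays above the controls, and its second probe gave 0.26. Bbc3 (Puma), a p53 target, had 0.18 in SM against control and -0.29 in SM + MSTF against SM, with adjusted p of 0.63 and 0.39 by limma.

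No caspase of 9 tested was called in any comparison. The share of all tested probes was 2.41% in SM against control, 0% in SM + MSTF against control and 1.26% in SM + MSTF against SM. Casp6, an executioner caspase, had 0.45 in SM + MSTF against SM (limma adjusted p = 0.28). In the death receptor list of 10 tested genes, Ripk1, the adaptor kinase of the TNF receptor, had 0.43 in SM against control (adjusted p = 0.15). Faslg and Tnf, the ligands, were not tested.

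Of the 14 tested genes of the apoptosome, the inhibitors of apoptosis and execution, Birc5 (survivin), which also serves in cell division, stood lowest. It had log2 signals of 8.40, 8.33 and 7.59 on the control arrays, 7.15, 6.88, 6.85 and 7.54 on the SM arrays and 7.56, 7.08 and 6.47 on the SM + MSTF arrays. Both treated groups lay below the controls, by a few hundredths at control replicate 3. The difference was -1.001 (interval -1.65 to -0.35, limma adjusted p = 0.11) in SM against control and -1.07 (interval -1.76 to -0.37, adjusted p = 0.42) in SM + MSTF against control. These comparisons share their control arrays. Endog, a mitochondrial nuclease, had 0.53 in SM + MSTF against SM (adjusted p = 0.26). Vdac1, a channel of the outer mitochondrial membrane, had -0.62 there (adjusted p = 0.19), while its other probes gave -0.11 and -0.10.

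Target genes of p53, the factor that DNA damage activates, were followed as a reference. Of 10 genes, all tested, 0 were called in any comparison, with a median log2 fold change of -0.06 in SM against control. Of all tested probes 2.41% were called in SM against control, 0% in SM + MSTF against control and 1.26% in SM + MSTF against SM. At these shares a count of 0 among 10 genes says little. An unadjusted limma p under 0.05 was found for 1 gene (Zmat3) in SM against control, against 16.4% of all tested probes. In the other comparisons it was found for 0, against 9.54% and 15.9%. In SM against control Cdkn1a (p21) had -0.15 and Mdm2 -0.12, with adjusted p of 0.87 and 0.61 by limma. Zmat3 had -0.28 (adjusted p = 0.23), with all SM arrays below the controls.

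Some of the other probes, chosen after their values were seen, also rested on 1 array, as Casp8 did. Tnfsf10, the death ligand TRAIL, stood at 9.41 on SM + MSTF replicate 3 and at 5.42 to 6.89 on the other 9 arrays. Its log2 fold change in SM + MSTF against control was 1.13 (limma adjusted p = 0.66), and 0.08 without that array. The second Mdm2 probe stood at 9.27 on SM + MSTF replicate 1 and at 6.91 to 7.36 on the others, with 0.83 in SM + MSTF against control and 0.14 without that array. These 3 high values lay on 3 different arrays.

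**Figure D5:**
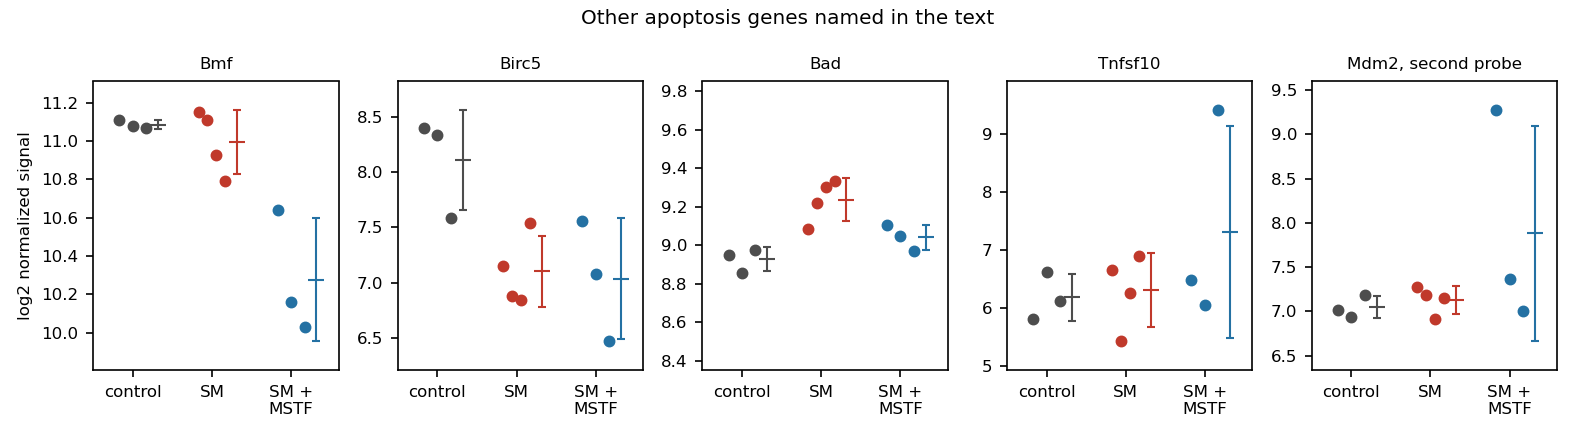
Log2 normalized signal (vertical axis) of Bmf, Birc5, Bad, Tnfsf10 and the second Mdm2 probe on the 3 control, 4 SM and 3 SM + MSTF arrays, with bars for the mean and SD. The SM + MSTF arrays of Bmf lie at 10.03 to 10.64, below all others, and single arrays stand apart for Tnfsf10 (9.41) and Mdm2 (9.27).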

How the data were processed

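Liver RNA of 3 control, 4 SM and 3 SM + MSTF rats was measured on 10 one-colour arrays. The authors read the images with Agilent Feature Extraction 10.7 (per the submitters' processing notes) and deposited an intensity per spot after background subtraction, with marks for spots well above background or not uniform. The authors also deposited log2 values, quantile normalized in GeneSpring, which served as an alternative. Non-uniform spots (0 to 4 per array) were left out, intensities were quantile normalized, taken as log2 and averaged where a probe has several spots (R 4.3.3, limma 3.58.1). Probes that some group had well above background on all its arrays, with 2 or more values in each group, were tested in 1 limma fit over 10 arrays (lmFit, then eBayes), adjusted by Benjamini-Hochberg over all 22991. Of 41012 probes, 17512 were named by accession through RefSeq (GRCr8) and 23500 have no name here.

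For gene lists the tested probe of highest mean signal stood for the gene. Named genes were all members, list genes called or with an unadjusted p under 0.05 in any comparison, marker genes called, the 3 genes most like the member of lowest F-test p, Actb and Gapdh. Bax, Bok, Bbc3, Cdkn1a, Mdm2, Tnfsf10, Cd8b and the genes given for their likeness to Bak1 or for its order of arrays fall outside this rule and were chosen after their values were seen. The 15 lists were 6 of apoptosis genes, the p53 reference genes and markers of hepatocytes, T, NK and B cells, macrophages and Kupffer cells, neutrophils, endothelial and stellate cells. Of the B cell, neutrophil, endothelial and stellate cell markers 2, 2, 6 and 7 were tested, and 0 were called in any comparison. Over all tested probes 2.41% were called in SM against control, 0% in SM + MSTF against control and 1.26% in SM + MSTF against SM. Members and lists were chosen with earlier results of these data known. The procedure was tested on simulated data. The number of arrays limits the precision. Some list genes enter the counts but are not reported here by name.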

Additional observations from a re-analysis of the deposited data

Results flagged for a closer look

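For the Bcl2l1 probe A_44_P548065, SM replicate 1 stood apart from the other SM arrays. It lay at 6.78 and the others at 6.32 to 6.33, and the gap to the nearest was 0.982 of the range of the group, above the 95% critical value of Dixon's test for 4 samples. This was 1 of 22 probes checked in the SM group, where chance alone flags about 5%. The groups of 3 arrays were not checked in this way. Casp8, with SM replicate 1 at 8.50, had a ratio of 0.794, below the critical value.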

How the results depend on the processing

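No member probe was called in any comparison or in the F-test under any alternative that gave these counts, among them one chosen after the data were seen (without SM replicate 2 and SM + MSTF replicate 3), and the count stayed at 0 with each array left out in turn. The lowest adjusted p of any member under these, leaving aside the unadjusted t-test, was 0.35 in SM against control, 0.33 in SM + MSTF against control and 0.15 in SM + MSTF against SM. Of 700 log2 fold changes of members recomputed under the alternatives, 695 moved by no more than the replicate SD of the probe and 5 moved further. In all, 30 changed sign, none of them called. Many of the 700 could not move by design, so the 695 overstate the stability. Settings that change only the filter, the thresholds or the test keep the group means, as does leaving out an array of the third group. With the replicate number as a block, 0 member probes and 0 apoptosis list genes were called in each comparison, and the log2 fold changes of members ran from -0.60 to 0.75 with a lowest adjusted p of 0.15. The deviations of same-numbered arrays had correlations of -0.099 to 0.17. With groups this small and no differently numbered arrays set beside them, these cannot decide whether the numbers pair the samples. Of the 48 apoptosis list genes, the main count of 0 became 1 in SM + MSTF against SM under 75th percentile scaling (Bmf), and ranged from 0 to 1 with each array left out, where the call without SM + MSTF replicate 1 was Bmf. The methods' t-test at an unadjusted p under 0.05 with the fold minimum called 1 list gene in SM against control (Birc5), 1 in SM + MSTF against control (Bmf) and 2 in SM + MSTF against SM (Bmf and Vdac1), and 0 in each after Benjamini-Hochberg adjustment. Under a fixed slide block, where only SM + MSTF replicate 3 faces the controls, 1 list gene was called in SM + MSTF against control (Tnfsf10), and the log2 fold changes of members ran from -0.13 to 0.64 with a lowest adjusted p of 0.33. With the slide as a random block (correlation 0.109) 0 were called. The cause of these shifts was not tested. Signal over background, with a median of 2.20 to 2.54 per array, limits the values of Bcl2, Bcl2l11 and the dim Bcl2l1 probe.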
